A study of Mus musculus with 3 samples.

Results

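One irradiated mouse liver library and one unirradiated liver library were compared cell class by cell class. The first, called dHep_IR, carries a title that names Gsdmd deleted in hepatocytes and irradiation. The second, called FL_control, is titled floxed for Gsdmd and was not irradiated. Members were all barcodes of these 2 libraries that held 500 or more UMIs over 250 or more genes, of which at most 25 percent were mitochondrial. This left 14170 cells, 7552 from dHep_IR and 6618 from FL_control, of 20950 cells that pass in the whole series and 22872 deposited barcodes. The remaining 6780 cells belong to FL_IR, titled floxed and irradiated, whose values stand beside the others only to show whether a difference was seen there too.

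The series models radiation-induced liver disease in mice. Livers were profiled with 10x Genomics 3' droplet sequencing, and the series' design text gives 30 Gy and a harvest 7 days later. Every group thus carries floxed or deleted Gsdmd by its title, yet both floxed libraries also carry a wild-type genotype tag, and the tag of dHep_IR names a Gsdmd knockout without naming hepatocytes. The Cre driver, the floxed exon, the irradiated part of the body, the age and strain of the mice and whether a library held 1 animal or a pool are not given in the sources used here. With 1 library per group, genotype, irradiation, animal and library preparation cannot be told apart, no test between groups was possible, and no value has a spread between animals.

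Gasdermin D, encoded by Gsdmd, is cut by inflammatory caspases and then forms pores in the plasma membrane, which releases interleukin-1 and ends in pyroptosis. Ionizing radiation breaks DNA, and the transcription factor p53 answers with genes that stop the cell cycle, repair DNA or start cell death. In the liver, sinusoidal endothelial cells scavenge and instruct hepatocytes, Kupffer cells clear blood-borne material, and monocytes and neutrophils enter from the blood.

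Gsdmd itself was read first, as a check on the labels. Over all kept cells it stood at 36.4 counts per 1000000 UMIs (CPM) in FL_control, 36.9 in dHep_IR and 7.21 in FL_IR. The ratio of dHep_IR to FL_control was 1.01, with a 95 percent interval of 0.953 to 1.08 that, like every interval here, covers counting error only. By class, Gsdmd was 26.4 CPM in endothelial-like cells of FL_control and 24.6 in dHep_IR, 58.8 and 36.3 in Kupffer-like cells, 81.0 and 54.0 in monocyte-like cells, and 78.5 and 37.2 in neutrophil-like cells. In FL_IR these classes were at 9.27, 8.32, 6.50 and 6.32 CPM. The low library was therefore the one labelled floxed and irradiated, in these 4 classes as well as over all cells, and not the one labelled as the deletion. Hepatocyte-like cells held 22 Gsdmd UMIs in FL_control and 1 in dHep_IR, too few to check a deletion in hepatocytes, and a 3' tag outside a removed exon would check nothing. A title that names deletion in hepatocytes says nothing of Gsdmd in the other classes, so their values cannot check it. The low level in FL_IR is not explained by its label, and its cause was not tested. The name dHep_IR means throughout the library labelled as the deletion.

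Doublet removal left 7261 cells of dHep_IR and 6458 of FL_control. Clustered together with the cells of FL_IR, they gave 40 clusters, named from fixed marker genes and written as X-like. The deposited libraries held 78694038 UMIs in dHep_IR, 52858425 in FL_control and 59228905 in FL_IR. Median depth was 7967 UMIs per kept cell in dHep_IR and 5838 in FL_control, and the median mitochondrial share 2.78 and 4.56 percent. Clusters of endothelial-like, Kupffer-like and neutrophil-like cells held almost exclusively irradiated or almost exclusively control cells, so within these classes a cluster cannot be told apart from its library. The 2 libraries shared 51 barcodes among kept cells, and in 40 of them the control copy held a small part of the UMIs (median 595.5 against 44707) of the dHep_IR copy. These pairs held 23 of the 55 control cholangiocyte-like cells, so that class was not compared. The 68 counts and medians recomputed without the shared barcodes kept their size and direction.

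The make-up of the liver cells differed widely. Neutrophil-like cells were 7.11 percent of FL_control, 25.5 percent of dHep_IR and 35.8 percent of FL_IR, so their share in dHep_IR was 3.58-fold higher (interval 3.23 to 3.98). Monocyte-like cells made up 2.26 percent of FL_control, 15.04 percent of dHep_IR and 7.21 percent of FL_IR, a 6.65-fold higher share in dHep_IR (5.59 to 7.96). Endothelial-like cells were 34.1 percent in FL_control, 45.0 in dHep_IR and 39.9 in FL_IR. Both myeloid classes were thus larger in each irradiated library, with more neutrophil-like cells in FL_IR and more monocyte-like cells in dHep_IR. Both irradiated libraries are set against the same control library here and below.

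Lymphoid and dendritic classes were smaller. B-like cells were 21.9 percent of FL_control (1416 cells), 0.151 percent of dHep_IR (11 cells) and 0.321 percent of FL_IR, which made their share in dHep_IR 145-fold lower (80.6 to 291). The share of pDC-like cells, the main producers of type I interferon, was 2.09 percent in FL_control, 0.0413 in dHep_IR and 0 in FL_IR (0 of 6545 cells, which by 3 counts of the total allows a share of up to 0.0458 percent), or 50.6-fold lower in dHep_IR (16.9 to 248). T-like cells stood at 5.14, 1.78 and 1.15 percent in FL_control, dHep_IR and FL_IR, and NK or ILC1-like cells at 2.25, 0.895 and 0.458 percent. A cluster with both T and NK markers, numbered 7, held 4.66, 0.937 and 0.550 percent. Conventional dendritic cells (cDC-like) were 1.66 percent of FL_control and 1.01 percent of dHep_IR but 0.0458 percent of FL_IR. Kupffer-like cells were 8.80, 5.01 and 6.91 percent, and hepatocyte-like cells 1.61, 0.110 and 0.642 percent. Shares add to a whole, and dissociation also sets them. Among leukocytes alone, the monocyte-like share was 7.39-fold higher (6.21 to 8.84) and the B-like share 130-fold lower (72.6 to 262).

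**Figure D1:**
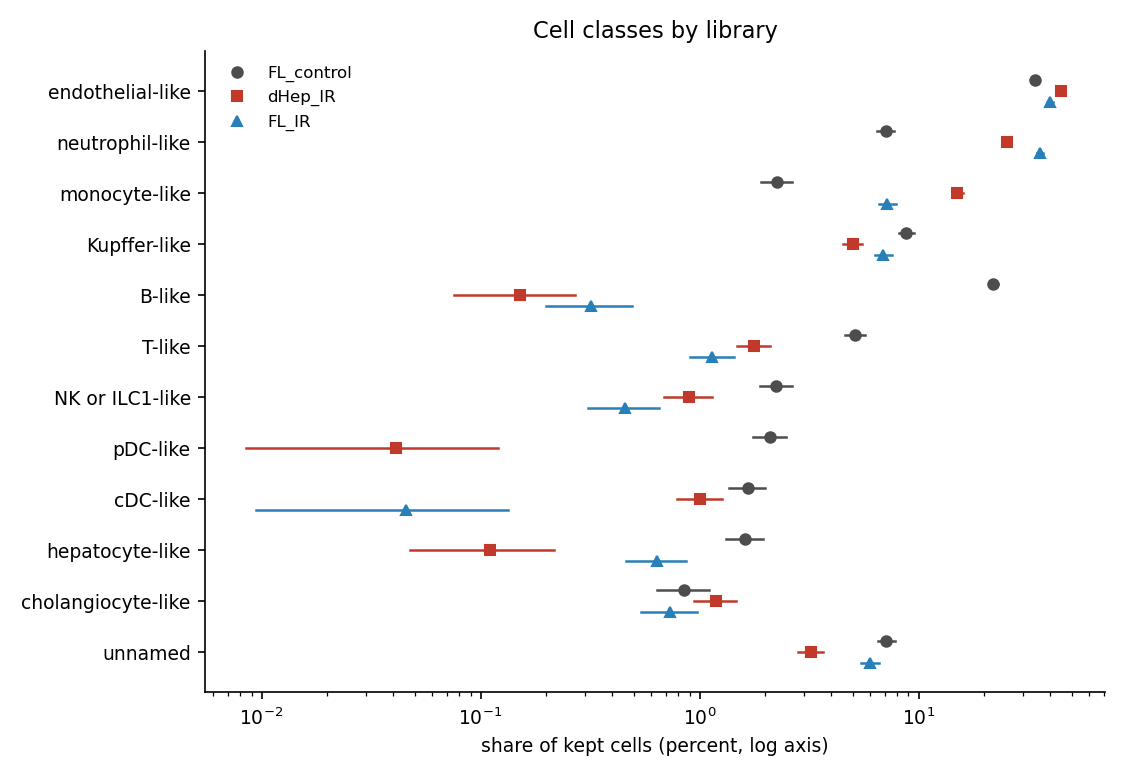
Share of kept cells in each marker-defined class (percent, log axis), one point per library with exact Clopper-Pearson 95 percent intervals for counting error. The mixed T and NK cluster is not drawn. B-like and pDC-like cells lie far lower in dHep_IR than in FL_control and monocyte-like and neutrophil-like cells lie higher. The pDC-like share of 0 in FL_IR cannot be drawn on a log axis.

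Gene levels were compared in the 8 classes that held 50 or more cells in each library, as UMIs summed per class and library and scaled to CPM. A gene counted as measured with at least 50 UMIs over the 2 libraries, and as higher or lower when its CPM differed at least 2-fold. In endothelial-like cells 7.44 percent of 11277 measured genes were higher and 17.0 percent lower, and in Kupffer-like cells 5.72 percent of 8788 were higher and 11.3 percent lower. The values were 7.64 and 12.5 percent of 9129 in monocyte-like cells and 10.4 and 33.0 percent of 7966 in neutrophil-like cells. Smaller classes had 5.70 and 8.09 percent (cDC-like, of 4770), 4.01 and 5.0 percent (T-like, of 5381), 2.58 and 11.5 percent (cluster 7, of 5195) and 2.25 and 12.7 percent (NK or ILC1-like, of 3108). The median log2 ratio over all measured genes was -0.17, -0.14, -0.17 and -0.57 in endothelial-like, Kupffer-like, monocyte-like and neutrophil-like cells, and every list median below is to be read against these. Each list count below is likewise to be read against the percentages of its class given here.

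How many genes counted as higher or lower depended on the scaling. With TMM factors every log2 ratio moved up by 0.16, 0.14, 0.31 and 0.97 in the same 4 classes and by 0.13, 0.12 and 0.24 in cDC-like cells, cluster 7 and NK or ILC1-like cells, and down by 0.10 in T-like cells. Higher and lower genes then numbered 1033 and 1517 in endothelial-like cells (839 and 1915 by CPM), 634 and 781 in Kupffer-like cells (503 and 997), 1095 and 682 in monocyte-like cells (697 and 1140) and 2393 and 956 in neutrophil-like cells (825 and 2629). In cDC-like cells they numbered 358 and 313 (272 and 386), in T-like cells 174 and 346 (216 and 269), in cluster 7 181 and 481 (134 and 599) and in NK or ILC1-like cells 139 and 237 (70 and 395).

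**Figure D2:**
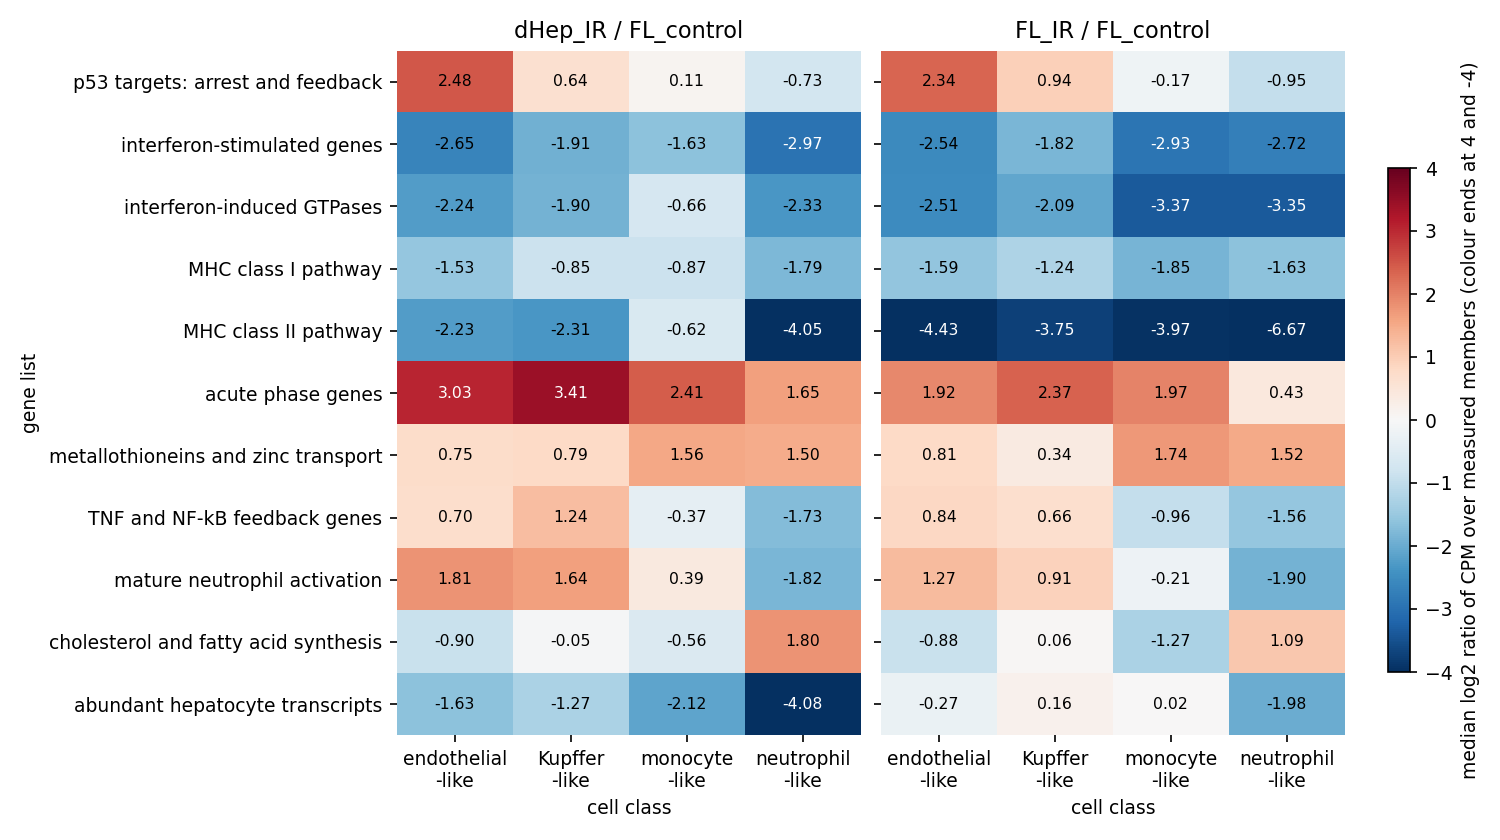
Median log2 ratio of CPM, dHep_IR over FL_control in the left panel, for the measured members of gene lists (rows) in the 4 largest compared classes (columns), with FL_IR over the same control in the right panel, the value printed in each cell and the colour ending at 4 and -4. The p53 list is high in endothelial-like cells, at 2.48, while interferon-stimulated genes are low in endothelial-like, Kupffer-like, monocyte-like and neutrophil-like cells.

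In endothelial-like cells most genes of the p53 arrest and feedback list stood higher in the library labelled dHep_IR. The list had 17 higher and 2 lower of 24 measured, beside 7.44 percent higher and 17.0 percent lower over all genes, and a median log2 ratio of 2.48, beside -0.17. The stress cytokine gene Gdf15 was at 0.622 CPM in FL_control, 96.4 in dHep_IR and 113 in FL_IR, or 155-fold higher (interval 90.3 to 291). Phlda3, an inhibitor of the kinase Akt, stood at 14.99 CPM in FL_control, 337 in dHep_IR and 359 in FL_IR, which was 22.5-fold higher (interval 20.1 to 25.3). Cdkn1a, which encodes the cell cycle inhibitor p21, was already present in the control, at 168 CPM in FL_control, 1555 in dHep_IR and 1735 in FL_IR, and was 9.24-fold higher (interval 8.93 to 9.57). All 3 genes were high in both irradiated libraries and low in the unirradiated one. Mdm2, the ubiquitin ligase that degrades p53, was at 41.8 CPM in FL_control, 279 in dHep_IR and 318 in FL_IR. The death receptor gene Eda2r was 15.7-fold higher (interval 13.3 to 18.6), Ckap2, a spindle protein, 40.6-fold higher (interval 25.8 to 67.8), and Gtse1, which holds p53 in the cytoplasm, 36.6-fold higher (interval 23.2 to 61.2). The 2 lower members were Ccnd1, encoding cyclin D1, at 564 CPM in FL_control, 71.1 in dHep_IR and 47.1 in FL_IR, and the DNA damage sensor Xpc at 104 CPM in FL_control, 47.9 in dHep_IR and 42.4 in FL_IR. The list's median in FL_IR against the same control was 2.34.

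Cdkn1a was found in most endothelial-like cells of dHep_IR. After each cell was thinned to 1000 UMIs, 11.9 percent of FL_control cells, 72.1 percent of dHep_IR cells and 75.8 percent of FL_IR cells held a Cdkn1a UMI, against 4.68, 5.90 and 2.52 percent of neutrophil-like cells. Median depths were 8902.5 UMIs in endothelial-like cells of FL_control and 5732.5 in dHep_IR, and 3489 and 13266 in neutrophil-like cells, and before thinning the Cdkn1a shares were 43.6 and 96.7 percent. For Phlda3 the thinned shares were 1.87 percent in FL_control, 28.0 in dHep_IR and 28.2 in FL_IR, with 0, 0.108 and 0.0854 percent of neutrophil-like cells. Gdf15 was found in 0.0910, 7.10 and 8.13 percent, where 0.445, 0.163 and 0.213 percent of neutrophil-like cells held it. Thinning left out 3, 52 and 18 shallower endothelial-like cells of FL_control, dHep_IR and FL_IR and at most 39 in any other class and library used below.

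The list of p53-linked death genes was higher in part, with 7 higher and 1 lower of 12 measured and a median of 1.40 (FL_IR 1.51). Not all of its members are death effectors. Bax, which permeabilizes mitochondria, was at 187 CPM in FL_control, 1050 in dHep_IR and 1018 in FL_IR, or 5.61-fold higher (interval 5.42 to 5.81). Tnfrsf10b, the mouse TRAIL receptor gene, was 25.6-fold higher (interval 18.8 to 35.7), and Dcxr, a carbonyl reductase gene, was 14.4-fold higher (interval 12.8 to 16.4). Bbc3 and Pmaip1, which encode PUMA and NOXA, were at 12.97 CPM in FL_control and 35.7 in dHep_IR for the first and 2.15 CPM in FL_control and 5.47 in dHep_IR for the second. Casp1, the caspase that activates interleukin-1 and gasdermin D, was the lower member, at 45.5 CPM in FL_control and 18.7 in dHep_IR. DNA repair and damage signalling genes went the other way, with a median of -0.65. They had 0 higher and 6 lower of 15 measured, beside 7.44 percent higher and 17.0 percent lower over all genes. Among them the checkpoint kinase gene Chek2 was 5.52-fold lower (interval 3.88 to 8.05), Xrcc6, encoding the end-binding protein Ku70, 3.37-fold lower (interval 2.35 to 4.95), and the damage kinase gene Atm 2.298-fold lower (interval 1.85 to 2.88).

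Interferon-stimulated genes, which type I and II interferons induce and many of which limit viral growth, were lower in endothelial-like cells. Of 35 members 31 were measured, and 0 were at least 2-fold higher and 29 lower, with a median of -2.65 (FL_IR -2.54). Ifit3, an antiviral RNA-binding protein gene, was at 72.8 CPM in FL_control, 2.81 in dHep_IR and 3.75 in FL_IR, or 25.9-fold lower (interval 19.8 to 34.5). Its neighbour in function Ifit1 stood at 45.7 CPM in FL_control, 2.51 in dHep_IR and 2.93 in FL_IR, or 18.2-fold lower (interval 13.7 to 24.7). Isg15, a ubiquitin-like modifier, was at 142 CPM in FL_control, 14.6 in dHep_IR and 16.2 in FL_IR. Both irradiated libraries lay below the control for each of these genes. Ifitm3, a membrane protein that blocks viral fusion, was the one measured member above the control, at 2165 CPM in FL_control, 2896 in dHep_IR and 2112 in FL_IR, short of 2-fold. Thinned to 1000 UMIs, 9.79 percent of FL_control cells, 1.31 percent of dHep_IR cells and 1.66 percent of FL_IR cells held an Isg15 UMI, and T-like cells 7.90, 3.97 and 2.67 percent at median depths of 6342, 5364 and 5804 UMIs. T-like cells can express Isg15 too, and the control share lies little above theirs, so their shares are no measure of free RNA alone.

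Interferon response elements are promoter sequences that IRF proteins bind, so the promoters of 5 list members are shown, 4 with and 1 without the motif of a pair of GAAA runs with any 2 bases between them. Of the 35 listed genes 25 had a promoter in the RefSeq table of build GRCm38.p6, and 10 of these, or 40 percent, held this motif on either strand within 250 bases before the start, overlapping matches included. Over all 27025 promoters of the table the share was 3.04 percent. The matched letters are in capitals in the 150 bases before each start, 5′ to 3′ along the gene's strand, and a match in capitals that reads TTTC is on the other strand.
Isg15, chr4:156200819-156200968, minus strand: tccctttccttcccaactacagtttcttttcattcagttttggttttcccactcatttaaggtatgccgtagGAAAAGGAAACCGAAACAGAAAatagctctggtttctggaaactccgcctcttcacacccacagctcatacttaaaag
Ifit1, chr19:34640739-34640888, plus strand: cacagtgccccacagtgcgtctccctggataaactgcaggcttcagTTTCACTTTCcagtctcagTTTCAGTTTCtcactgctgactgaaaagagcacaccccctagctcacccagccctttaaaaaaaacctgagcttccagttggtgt
Ifit3, chr19:34583379-34583528, plus strand: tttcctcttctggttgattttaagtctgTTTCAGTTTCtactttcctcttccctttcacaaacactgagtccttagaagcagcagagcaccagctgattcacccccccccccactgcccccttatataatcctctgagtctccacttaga
Rsad2, chr12:26456453-26456602, minus strand: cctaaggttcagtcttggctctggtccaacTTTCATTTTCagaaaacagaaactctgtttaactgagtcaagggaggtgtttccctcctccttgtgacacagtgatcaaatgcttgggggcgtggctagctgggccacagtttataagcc
Ifitm3, chr7:141010745-141010894, minus strand: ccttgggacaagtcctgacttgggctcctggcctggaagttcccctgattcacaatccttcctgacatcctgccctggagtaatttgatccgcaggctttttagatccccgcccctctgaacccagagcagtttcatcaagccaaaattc
Rsad2, encoding the antiviral enzyme viperin, was at 155 CPM in FL_control, 24.7 in dHep_IR and 27.9 in FL_IR. Isg15, Ifit1, Ifit3 and Rsad2 were each lower in dHep_IR. Ifitm3 is shown as the member above the control, and the lack of a match says only that these letters are not in its window. A match describes letters and does not show a binding site.

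Interferon-induced GTPases, which coat and break vacuoles that hold microbes, showed 0 higher and 15 lower of 15 measured, with a median of -2.24 (FL_IR -2.51). Ifi47 stood at 67.5 CPM in FL_control, 9.14 in dHep_IR and 8.27 in FL_IR, or 7.39-fold lower (interval 6.33 to 8.67), and the guanylate-binding protein gene Gbp3 at 46.3 CPM in FL_control, 6.78 in dHep_IR and 4.28 in FL_IR. In this family 9 of 10 matched promoters, 90 percent, held the motif of paired GAAA runs. MHC class I genes, which present peptides from inside the cell to CD8 T cells, were lower by less, with 0 higher and 12 lower of 16 measured and a median of -1.53. B2m, the class I light chain, was at 5196 CPM in FL_control, 1574 in dHep_IR and 1427 in FL_IR, and Psmb9, a subunit of the immunoproteasome, was 5.76-fold lower (interval 5.24 to 6.35).

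**Figure D3:**
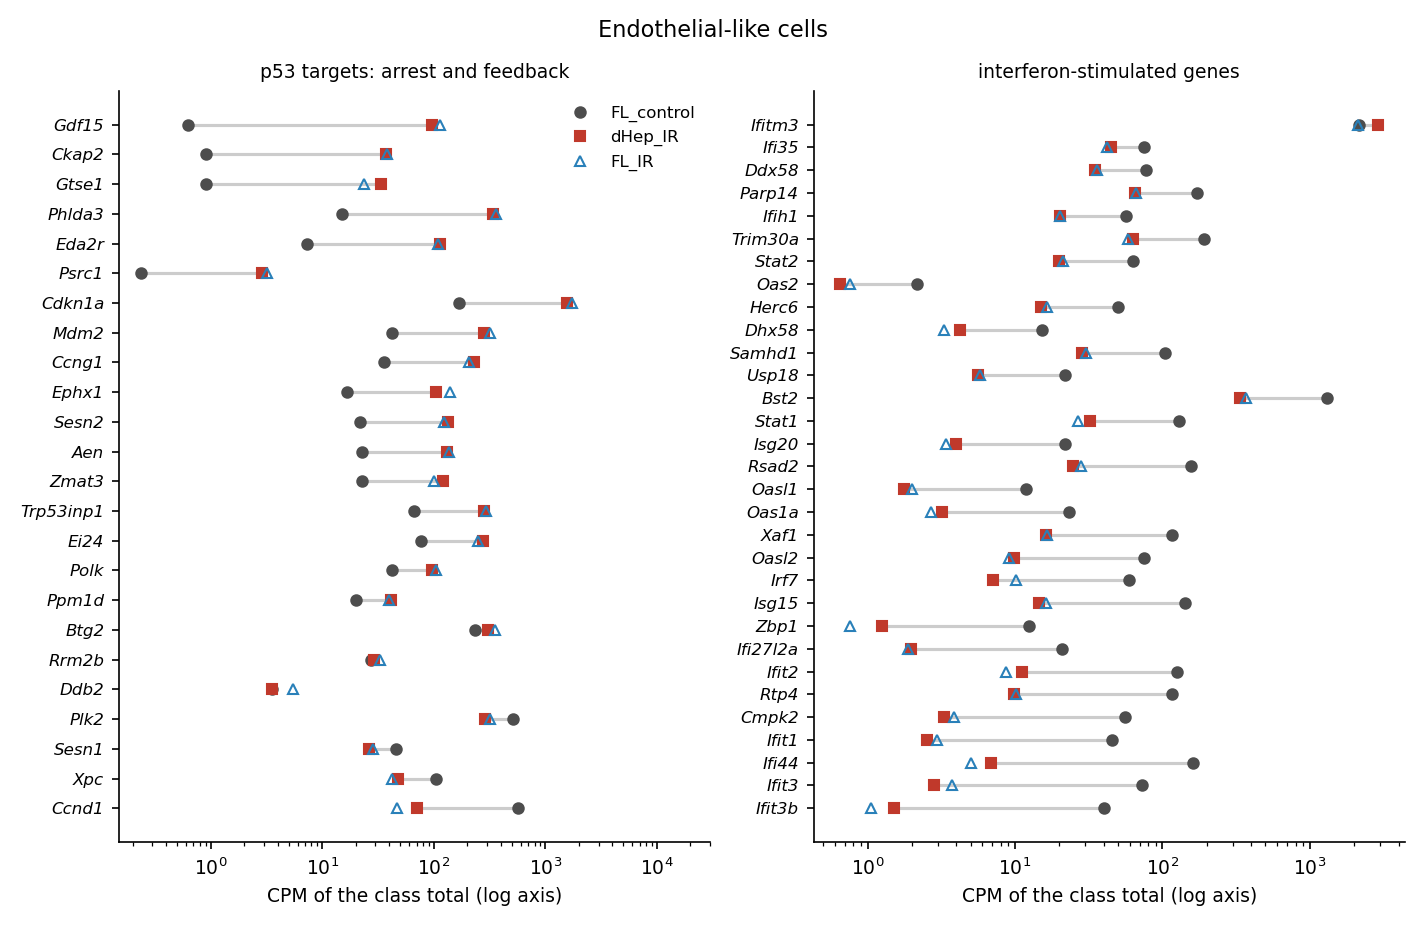
CPM of the measured members of the p53 arrest and feedback list (left) and of the interferon-stimulated list (right) in endothelial-like cells on a log axis, 1 point per gene and library. Most p53 genes in dHep_IR and FL_IR lie above FL_control, with Ccnd1 and Xpc at least 2-fold below it in dHep_IR, and in dHep_IR every interferon-stimulated gene shown but Ifitm3 lies below FL_control.

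Acute phase genes, which the liver makes during inflammation, were higher in endothelial-like cells, with 17 higher and 0 lower of 17 measured, median 3.03 in dHep_IR and 1.92 in FL_IR. Lcn2, which binds bacterial iron carriers, was at 0.527 CPM in FL_control, 278 in dHep_IR and 123 in FL_IR, or 529-fold higher (interval 295 to 1059.6). The protease inhibitor gene Serpina3n was 217-fold higher (interval 137 to 367). Serum amyloid genes were far higher in dHep_IR than in FL_IR. Saa1 was at 3.54 CPM in FL_control, 141 in dHep_IR and 16.1 in FL_IR, and Saa2 at 2.11 CPM in FL_control, 150.1 in dHep_IR and 8.03 in FL_IR. Many of these transcripts are products of hepatocytes or neutrophils. The 17 endothelial markers themselves summed to 27781 CPM in FL_control, 16948 in dHep_IR and 15054 in FL_IR. Summed over 13 neutrophil markers, endothelial-like cells carried 137 CPM in FL_control, 1562 in dHep_IR and 1482 in FL_IR, while T-like cells, which should lack serum amyloid transcripts, held Saa2 at 2.61 CPM in FL_control and 133 in dHep_IR. The part of free RNA in these values was not tested. Abundant hepatocyte transcripts in endothelial-like cells were lower, with 1 higher and 10 lower of 16 measured, median -1.63 in dHep_IR and -0.27 in FL_IR. The metallothionein genes, which bind zinc and other metals, were high in both irradiated libraries. Mt1 stood at 648 CPM in FL_control, 15928 in dHep_IR and 11854 in FL_IR, and Mt2 at 157 CPM in FL_control, 6719 in dHep_IR and 4615 in FL_IR, or 42.9-fold higher (interval 41.4 to 44.4). The list with zinc transporters had 2 higher and 0 lower of 6 measured.

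Genes of sinusoidal identity were split. The scavenger and lectin receptors had 2 higher and 6 lower of 15 measured, beside 7.44 percent higher and 17.0 percent lower over all genes. Their median was -0.90 (FL_IR -1.40). Ehd3, a membrane trafficking protein, was 6.44-fold lower (interval 6.32 to 6.56), and Dnase1l3, a secreted DNase, 4.89-fold lower (interval 4.81 to 4.97). The mannose receptor gene Mrc1 was at 2141 CPM in FL_control, 669 in dHep_IR and 506 in FL_IR. Against these, the hyaluronan receptor gene Lyve1 stood at 1021 CPM in FL_control, 4885 in dHep_IR and 4825 in FL_IR and Clec1b, the podoplanin receptor, at 306 CPM in FL_control, 1839 in dHep_IR and 1393 in FL_IR, both higher. Stabilin genes differed little, with Stab1 at 1203 CPM in FL_control and 1156 in dHep_IR and Stab2 at 1067 CPM in FL_control and 873 in dHep_IR.

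Angiocrine factors are the signals by which endothelium instructs hepatocytes. Their list, with zonation genes, had 4 higher and 8 lower of 20 measured, beside 7.44 percent higher and 17.0 percent lower over all genes. Its median was -0.68. Wnt2, a Wnt ligand of the central vein area, was at 460.2 CPM in FL_control, 79.8 in dHep_IR and 199 in FL_IR, or 5.76-fold lower (interval 5.47 to 6.08). Hgf, the hepatocyte growth factor, went the other way, at 132 CPM in FL_control, 642 in dHep_IR and 714 in FL_IR, or 4.86-fold higher (interval 4.66 to 5.06). Ltbp4, which anchors TGF-beta in the matrix, was 33.5-fold lower (interval 30.4 to 36.9), and the adhesion receptor gene Cdh13 9.398-fold lower (interval 8.23 to 10.8). In the VEGF and angiopoietin list, 1 higher and 4 lower of 13 measured (median -0.38), the receptors Kdr and Tek were at 2991 CPM in FL_control and 1053 in dHep_IR for Kdr and 447 CPM in FL_control and 136 in dHep_IR for Tek, while the receptor Flt1 was at 1095 CPM in FL_control and 1165 in dHep_IR. Vegfa was 8.75-fold lower (interval 6.86 to 11.3).

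Adhesion molecules that capture leukocytes were higher in part. P-selectin (Selp) was at 12.5 CPM in FL_control, 233 in dHep_IR and 122 in FL_IR, or 18.7-fold higher (interval 16.5 to 21.2), and E-selectin (Sele) was 7.28-fold higher (interval 5.85 to 9.15). The Selp level was uneven within the class, at 1207 CPM in cluster 28 (408 of 3264 cells) and at most 95.1 CPM in the other 7 clusters of at least 50 cells in dHep_IR. Cluster 17, led like cluster 28 by the gene Rspo3, held 48 of the 2200 control cells. The part of these cell shares in the Selp difference was not tested. Icam1, the ligand of leukocyte integrins, was at 130.3 CPM in FL_control, 457 in dHep_IR and 414 in FL_IR, but Vcam1 was at 151 CPM in FL_control, 107 in dHep_IR and 64.4 in FL_IR. The list as a whole had 5 higher and 3 lower of 17 measured and a median of 0.25. In the neutrophil recruitment list, 7 higher and 1 lower of 11 measured with a median of 2.18, the chemokine genes Cxcl1 and Cxcl2 were 6.704-fold higher (interval 6.304 to 7.13) and 5.88-fold higher (interval 5.38 to 6.42). Its higher members Itgam and Itgb2 are integrins of neutrophils, whose markers stood higher in these cells as given above. The mature neutrophil activation list had 11 higher and 2 lower of 17 measured and a median of 1.81. Coagulation genes had 4 higher and 5 lower of 14 measured (median -0.50), beside 7.44 percent higher and 17.0 percent lower over all genes. Thbd, the anticoagulant thrombomodulin, was at 195 CPM in FL_control, 883 in dHep_IR and 1278 in FL_IR, and F8, clotting factor VIII, which liver endothelium makes, at 1029 CPM in FL_control, 218 in dHep_IR and 107 in FL_IR. Cholesterol and fatty acid synthesis genes had 0 higher and 9 lower of 18 measured (median -0.90).

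By the fixed rule, the genes with the most extreme ratios in endothelial-like cells were led by Zbtb16, a zinc finger transcription factor gene, at 0.144 CPM in FL_control, 114 in dHep_IR and 118 in FL_IR, or 790.4-fold higher (interval 270.1 to 3835). Ctsj, a cathepsin gene, was at 0.335 CPM in FL_control, 228 in dHep_IR and 383 in FL_IR, or 681-fold higher (interval 330.3 to 1695). The cathepsin list had 1 higher and 2 lower of 14 measured, near the 7.44 percent higher and 17.0 percent lower over all genes. Its median was -0.11, or 0.05 with TMM factors. Tmem252 was higher in dHep_IR than in FL_IR, at 0.239 CPM in FL_control, 62.8 in dHep_IR and 10.8 in FL_IR. On the low side Plxdc1, a surface receptor of vessels, was at 20.9 CPM in FL_control, 0.1004 in dHep_IR and 0.4105 in FL_IR, or 208-fold lower (interval 57.3 to 1726). The other low genes are products of hepatocytes. The urinary protein gene Mup11 was at least 282-fold lower, Mup7 at least 87.7-fold lower and the carbonic anhydrase gene Car3 at least 80.7-fold lower, each taken at a floor of 3 counts.

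Within the endothelial-like class of dHep_IR, 8 clusters of at least 50 cells varied in vessel identity and little in the p53 list. Cdkn1a ranged from 1399 to 1735 CPM over these clusters, against 104 to 274 in the 3 control clusters of that size. The p53 list median ranged from 2.20 to 2.73, and the interferon list median from -2.84 to -2.03. Gdf15 was highest in cluster 21, at 195 CPM, and between 57.6 and 115 in the others. Cluster 28 (408 cells of dHep_IR and 171 of FL_IR) carried the Wnt enhancer gene Rspo3 at 1738 CPM. Rspo3 also led cluster 17, which held 48 cells of FL_control and 0 of either irradiated library and fell under the minimum of 50. Cluster 29 held Esm1, a gene of sprouting endothelium, at 597 CPM, and cluster 25 held Saa2 at 767 CPM where the other 7 held 74.6 to 169. The unnamed clusters 6 (309 control cells and 2 of dHep_IR) and 24 (9 and 190) had endothelial markers but shallow depth and were left out.

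Kupffer-like cells, 568 in FL_control and 364 in dHep_IR, were named by fixed markers, Clec4f, Timd4, Marco and Folr2 among them, so the presence of these is no finding and their levels are given as a description. In the library labelled dHep_IR the identity list had 3 higher and 3 lower of 18 measured, beside 5.72 percent higher and 11.3 percent lower over all genes, median -0.55 in dHep_IR and -0.06 in FL_IR. Marco, a scavenger receptor for bacteria and particles, was at 546 CPM in FL_control, 10805 in dHep_IR and 7882 in FL_IR, or 19.8-fold higher (interval 19.1 to 20.5). Clec4f, the Kupffer cell lectin, was at 6767 CPM in FL_control, 2726 in dHep_IR and 4196 in FL_IR, or 2.48-fold lower (interval 2.43 to 2.54), and Timd4, a receptor for dead cells, at 618 CPM in FL_control, 595 in dHep_IR and 603 in FL_IR. Folr2, a folate receptor gene, was 2.89-fold lower (interval 2.75 to 3.05). Among haem and iron genes (4 higher and 2 lower of 13 measured, median 0.09), the haemoglobin receptor gene Cd163 was 2.95-fold higher (interval 2.82 to 3.08), the haem oxygenase gene Hmox1 at 1514 CPM in FL_control, 4301 in dHep_IR and 5521 in FL_IR, and the transferrin receptor gene Tfrc 4.56-fold lower (interval 3.32 to 6.39). Of the 364 cells in dHep_IR 118 belonged to cluster 4, which was shallow, with a median of 1751 UMIs. Marco was at 10322 CPM there and at 10870 CPM in the deeper cluster 38.

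p53 genes were higher in Kupffer-like cells as well, but fewer of them, with 8 higher and 2 lower of 19 measured and a median of 0.64 (FL_IR 0.94). Cdkn1a was at 25.7 CPM in FL_control, 651 in dHep_IR and 795 in FL_IR, or 25.4-fold higher (interval 21.4 to 30.2), and Phlda3 was 39.1-fold higher (interval 17.5 to 108). At the coarser clustering the list median was 0.10. Gdf15 differed less than in endothelial-like cells, at 37.8 CPM in FL_control, 102 in dHep_IR and 66.2 in FL_IR. That difference between classes was not tested.

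Kupffer-like cells of dHep_IR carried more of several cytokine and chemokine transcripts, but not of all. The chemokine gene Cxcl9 was at 118 CPM in FL_control, 10.3 in dHep_IR and 1.28 in FL_IR, or 11.4-fold lower (interval 8.11 to 16.5). Ccl24 differed little, at 755 CPM in FL_control and 710 in dHep_IR. Il6, the cytokine that drives the acute phase response in hepatocytes, was at 14.95 CPM in FL_control, 322 in dHep_IR and 90.2 in FL_IR, or 21.5-fold higher (interval 17.2 to 27.1). Socs3, a feedback inhibitor of its receptor, was at 26.4 CPM in FL_control, 357 in dHep_IR and 316 in FL_IR, or 13.5-fold higher (interval 11.4 to 16.1), and their list had 6 higher and 0 lower of 13 measured (median 0.68). The cytokine gene Tnf was at 31.5 CPM in FL_control, 207 in dHep_IR and 123 in FL_IR, and its feedback inhibitor Tnfaip3 at 90.1 CPM in FL_control, 402 in dHep_IR and 226 in FL_IR. The TNF and NF-kB list had 9 higher and 0 lower of 14 measured, median 1.24 in dHep_IR and 0.66 in FL_IR. The list of CC chemokines and receptors had 6 higher and 3 lower of 12 measured (median 1.03). Ccl9 was at 27.4 CPM in FL_control, 1967 in dHep_IR and 1576 in FL_IR, or 71.7-fold higher (interval 61.2 to 84.6). The monocyte attractants Ccl2 and Ccl7 were at 169 CPM in FL_control, 1035 in dHep_IR and 350.3 in FL_IR for Ccl2, and 46.1 CPM in FL_control, 819.8 in dHep_IR and 88.3 in FL_IR for Ccl7. Ccl9 was high in both irradiated libraries, while Ccl7 stood far higher in dHep_IR than in FL_IR. The receptor gene Cx3cr1 was 23.04-fold lower (interval 9.702 to 71.7).

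Interferon and antigen presentation genes were lower. Interferon-stimulated genes had 0 higher and 23 lower of 31 measured, median -1.91 (FL_IR -1.82), with Ifit3 at 159 CPM in FL_control, 9.43 in dHep_IR and 22.4 in FL_IR. MHC class II genes, which present extracellular peptides to CD4 T cells, had 0 higher and 9 lower of 10 measured, median -2.31 in dHep_IR and -3.75 in FL_IR. H2-Ab1, a class II chain, was at 2201 CPM in FL_control, 377 in dHep_IR and 105 in FL_IR, or 5.84-fold lower (interval 5.51 to 6.19), and its transactivator gene Ciita was 6.92-fold lower (interval 3.63 to 14.8). Thinned to 1000 UMIs, H2-Ab1 was found in 74.0 percent of Kupffer-like cells of FL_control, 25.3 percent of dHep_IR and 10.4 percent of FL_IR, with 2.67, 0.271 and 0 percent of neutrophil-like cells and median Kupffer-like depths of 9505, 7013.5 and 4928.5 UMIs. CCAAT, a box found in class II promoters, was present on either strand in 6 of 8 matched promoters, 75 percent, against 34.5 percent of all promoters.

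Acute phase genes stood higher here too (14 higher and 0 lower of 14 measured, median 3.41), with Saa3, which macrophages themselves can make, at 4.75 CPM in FL_control, 825 in dHep_IR and 123 in FL_IR. The mature neutrophil activation list had 13 higher and 0 lower of 16 measured (median 1.64), and the summed neutrophil markers were 153 CPM in FL_control, 1896 in dHep_IR and 2618 in FL_IR. Their part in these values was not tested. By the rule for extreme genes, Ccl9, Saa2, Ttc39c and Saa1 were highest. Saa1 and Saa2 were also found in NK or ILC1-like cells of dHep_IR, at 105 and 125 CPM. The part of free RNA in their Kupffer-like values was not tested. Ttc39c was at 12.7 CPM in FL_control, 701 in dHep_IR and 905 in FL_IR, or 55.3-fold higher (interval 43.8 to 70.98). Lowest were Mup3, Mup7 and Mup11, products of hepatocytes, and the glutamate transporter gene Slc1a2, which was at 56.1 CPM in FL_control, 0.884 in dHep_IR and 4.16 in FL_IR, or 63.5-fold lower (interval 21.5 to 309).

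Monocyte-like cells, 146 in FL_control and 1092 in dHep_IR, fell into 2 clusters. Cluster 9 held all 146 control cells, 573 of dHep_IR and 58 of FL_IR. Cluster 11 held 0 control cells, 519 of dHep_IR and 414 of FL_IR. The clusters differed in antigen presentation, and the class mean mixes them. H2-Ab1 in cluster 9 was at 901 CPM in FL_control, 1367 in dHep_IR and 369 in FL_IR, while in cluster 11 it was at 5.39 CPM in dHep_IR and 0.204 in FL_IR. The MHC class II list median against the control was 0.25 for dHep_IR cells of cluster 9 and -6.70 for those of cluster 11. Over the whole class it was -0.62 in the library labelled dHep_IR (0 higher and 3 lower of 9 measured, beside 7.64 percent higher and 12.5 percent lower over all genes) and -3.97 in FL_IR, so its sign depends on which cells are taken. In dHep_IR 573 of 1092 cells lay in cluster 9, and in FL_IR 58 of 472.

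Interferon-linked genes followed the same split. The interferon-stimulated list had 0 higher and 25 lower of 30 measured over the class, median -1.63 (FL_IR -2.93), with medians of -0.93 in cluster 9 and -3.02 in cluster 11 of dHep_IR. Isg15 was at 162 CPM in control cells, 236 in cluster 9 and 8.90 in cluster 11 of dHep_IR, and 15.5 and 4.09 in the same clusters of FL_IR. Cxcl9, a chemokine gene that interferon gamma induces and that draws T cells, was at 211 CPM in control cells and 230 in cluster 9 of dHep_IR, and no UMI of it was found in cluster 11 or in FL_IR. The guanylate-binding protein gene Gbp2 was at 153 CPM in control cells, 269 and 10.2 in clusters 9 and 11 of dHep_IR, and 4.64 and 5.72 in FL_IR. Interferon-induced GTPases over the class had 0 higher and 3 lower of 13 measured, median -0.66 in dHep_IR and -3.37 in FL_IR. With the cells of cluster 9 alone the median in dHep_IR was 0.25. Cluster 9 of dHep_IR thus held Isg15, Cxcl9 and Gbp2 at or above the control level, although its interferon-stimulated list stood lower, and cluster 11 held little of them.

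**Figure D4:**
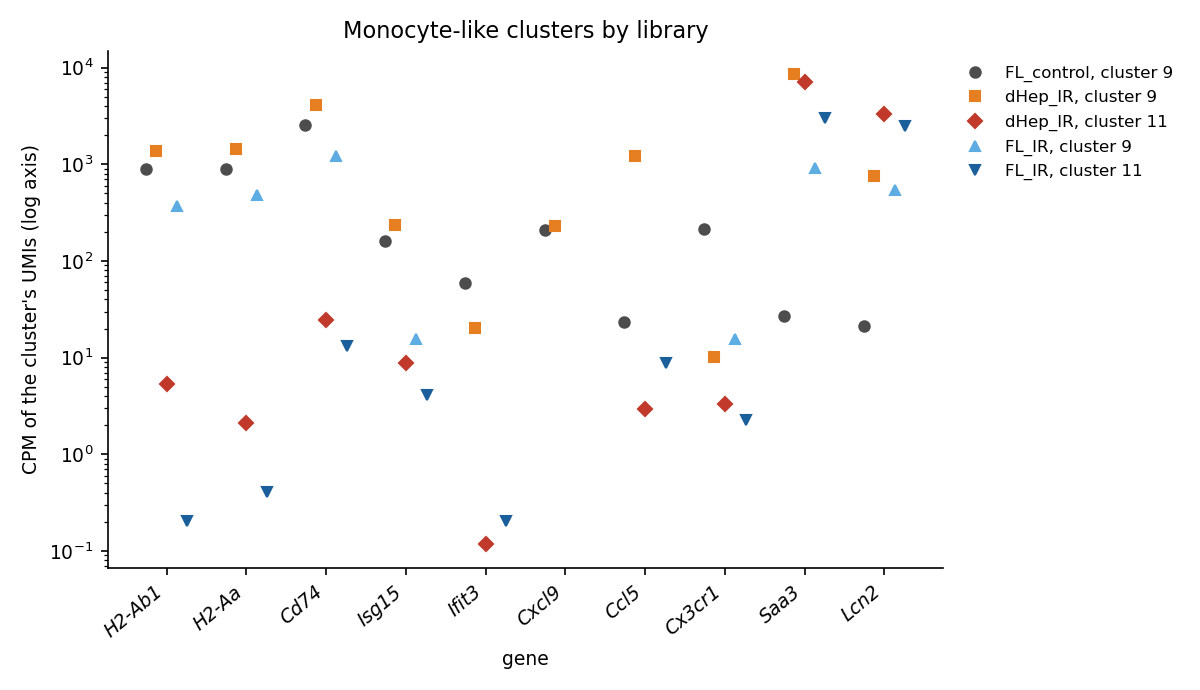
CPM of named genes in monocyte-like clusters 9 and 11, by library, on a log axis. H2-Ab1, Cd74 and Isg15 in cluster 9 of dHep_IR lie at or above FL_control and in cluster 11 far below it, whereas Saa3 is high in both clusters. Values of 0, such as Cxcl9 in FL_IR, cannot be drawn.

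Saa3 was high in monocyte-like cells of both clusters, and the other values here are given over the whole class. Saa3 was at 27.2 CPM in FL_control, 7798 in dHep_IR and 2750.4 in FL_IR, or 286-fold higher (interval 209 to 405), with 8564 CPM in cluster 9 and 7104 in cluster 11 of dHep_IR. At 1000 UMIs per cell, 2.11 percent of control cells, 66.5 percent of dHep_IR cells and 62.3 percent of FL_IR cells held a Saa3 UMI, against 0.608, 9.52 and 0 percent of T-like cells. The T-like share in dHep_IR is the background to read the others against. Median monocyte-like depths were 9968, 14684 and 11574 UMIs. The acute phase list had 13 higher and 0 lower of 15 measured (median 2.41, or 2.05 with 3 members at 0 in the control taken at their bound). Cx3cr1, the fractalkine receptor of patrolling monocytes and a marker of the class, was at 213 CPM in FL_control, 6.52 in dHep_IR and 3.79 in FL_IR, or 32.7-fold lower (interval 26.1 to 41.2).

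Cytokine receptors and chemokines differed as well. Ccl5, which attracts T cells and monocytes, was at 23.7 CPM in FL_control, 579 in dHep_IR and 7.76 in FL_IR, or 24.5-fold higher (interval 17.4 to 35.6), and within dHep_IR at 1217 CPM in cluster 9 and 2.93 in cluster 11. The decoy receptor gene Il1r2, which takes up interleukin-1 without signalling, was at 12.9 CPM in FL_control, 897 in dHep_IR and 1050 in FL_IR, or 69.5-fold higher (interval 43.98 to 117), while Il1b was at 1085 CPM in FL_control, 1492 in dHep_IR and 1144 in FL_IR. The interleukin-1 list had 5 higher and 0 lower of 9 measured (median 1.36) and the CC chemokine list 6 higher and 1 lower of 13 measured (median 0.54). Complement genes had 8 higher and 3 lower of 15 measured (median 1.01, FL_IR -0.05), with C1qa at 55.9 CPM in FL_control, 322 in dHep_IR and 54.1 in FL_IR. Most C1qa lay in cluster 9 of dHep_IR, at 646 CPM against 28.5 in cluster 11. Genes of lipid-associated macrophages had 1 higher and 7 lower of 17 measured (median -0.37, or 0.06 under the stricter cell filter), with Gpnmb, a glycoprotein of phagocytes, 4.396-fold lower (interval 3.68 to 5.23) and the lysosomal protease gene Ctsl 5.11-fold higher (interval 4.45 to 5.902). p53 genes had 0 higher and 5 lower of 18 measured and a median of 0.11, which turned to -0.77 under the stricter cell filter.

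The most extreme monocyte-like genes by the rule were Saa3, Prnp, Lrg1 and Saa2 on the high side. Saa2 was also found in NK or ILC1-like cells of dHep_IR, at 125 CPM. Prnp, the prion protein gene, was at least 42.3-fold higher at a floor of 3 counts, and Lrg1, an inflammatory glycoprotein gene, was at 2.15 CPM in FL_control, 571 in dHep_IR and 316 in FL_IR. On the low side were the hepatocyte product Mup20, the muscle-type enolase gene Eno3, the peptidylarginine deiminase gene Padi2 and the monocyte receptor gene Cd300e, the last at 71.7 CPM in FL_control, 2.95 in dHep_IR and 1.44 in FL_IR, or 24.3-fold lower (interval 17.05 to 35.01). Its log2 ratio of -4.59 became -0.66, and that of Eno3 -0.98 from -5.17, when cells were filtered more strictly and clustered anew. Neutrophil markers summed to 631 CPM in control monocyte-like cells, 24310 in dHep_IR and 10089 in FL_IR. Their part in the monocyte-like values was not tested.

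Neutrophil-like cells numbered 459 in FL_control and 1850 in dHep_IR and shared almost no cluster. Cluster 2 held 451 of the control cells and 2 of dHep_IR, and clusters 33 to 37 held nearly all cells of dHep_IR. Genes of granules that neutrophils fill while they mature in the marrow were higher in the library labelled dHep_IR. Their list had 11 higher and 1 lower of 13 measured, beside 10.4 percent higher and 33.0 percent lower over all genes, and a median of 3.17 (FL_IR 3.11), beside -0.57. The granule protein gene Ngp was at 55.9 CPM in FL_control, 19289 in dHep_IR and 11146 in FL_IR, or 345-fold higher (interval 282 to 427). Camp, the antimicrobial peptide cathelicidin, was at 20.8 CPM in FL_control, 4994 in dHep_IR and 2828 in FL_IR, and Ltf, lactoferrin, at 11.9 CPM in FL_control, 3277 in dHep_IR and 1275 in FL_IR. These 3 genes are also among the markers of the class. Ngp, Camp and Ltf were near absent from the control cells and abundant in both irradiated libraries. Mmp8, the neutrophil collagenase and also a marker of the class, was at 268 CPM in FL_control, 2156 in dHep_IR and 2324 in FL_IR. The lysozyme gene Lyz2 was the lower member, at 2187 CPM in FL_control, 788 in dHep_IR and 1098 in FL_IR.

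Ngp and Camp, the granule genes for which this was computed, were found in most neutrophil-like cells of dHep_IR. Thinned to 1000 UMIs, Ngp was found in 0.445 percent of control cells, 85.4 percent of dHep_IR cells and 76.5 percent of FL_IR cells, and Camp in 0.223, 60.5 and 34.3 percent. In T-like cells, which should lack both, Ngp was found in 0, 3.17 and 1.33 percent and Camp in 0, 0.794 and 0 percent. Median neutrophil-like depth was 3489 UMIs in FL_control, 13266 in dHep_IR and 9852 in FL_IR. Ngp ranged from 3218 CPM in cluster 37 to 26027 in cluster 36 of dHep_IR.

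Genes of activated mature neutrophils were lower, with 0 higher and 14 lower of 18 measured and a median of -1.82 (FL_IR -1.90). Ptgs2, encoding the prostaglandin enzyme COX-2, was at 1067 CPM in FL_control, 16.4 in dHep_IR and 15.95 in FL_IR, or 65.2-fold lower (interval 58.5 to 72.7). The interleukin-1 beta gene Il1b was at 6264 CPM in FL_control, 610.1 in dHep_IR and 910.4 in FL_IR, or 10.3-fold lower (interval 10.02 to 10.5), and the chemokine gene Ccl4 was 11.99-fold lower (interval 11.3 to 12.7). Within dHep_IR, Il1b ranged from 56.3 CPM in cluster 36 to 3574 in cluster 37, beside 6323 in control cluster 2. The list median ranged from -4.05 in cluster 36 to -0.19 in cluster 37, the cluster with the lowest Ngp. Immediate early genes that dissociation of tissue can induce were lower in the same cells, with 0 higher and 14 lower of 17 measured and a median of -1.97, Fos at 1418 CPM in FL_control, 197 in dHep_IR and 152 in FL_IR and Atf3 at 1361 CPM in FL_control, 23.2 in dHep_IR and 27.7 in FL_IR. In endothelial-like cells that median was -0.06. Their part in the activation list was not tested.

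The receptor genes Cxcr4, Csf3r and Cxcr2 were lower in dHep_IR by CPM. Csf3r and Cxcr2 are also among the markers of the class. Cxcr4, which retains neutrophils in the marrow and marks aged ones, was at 1038 CPM in FL_control, 51.2 in dHep_IR and 103 in FL_IR, or 20.3-fold lower (interval 18.8 to 21.8), and Csf3r, the G-CSF receptor gene, was 13.7-fold lower (interval 13.1 to 14.3). Cxcr2, the receptor for Cxcl1 and Cxcl2, was at 843 CPM in FL_control, 388 in dHep_IR and 528 in FL_IR. Its log2 ratio in dHep_IR was -1.12, most of which the TMM shift of 0.97 removes. The recruitment and retention list had 1 higher and 5 lower of 11 measured, beside 10.4 percent higher and 33.0 percent lower over all genes. The list median was -0.76, beside -0.57 over all genes, but 0.21 with TMM factors, which move every ratio in this class up by 0.97. TNF and NF-kB feedback genes had 0 higher and 10 lower of 13 measured (median -1.73), and complement genes 0 higher and 9 lower of 13 measured (median -1.68).

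Genes of the pyroptosis machinery, from inflammasome sensors to membrane rupture, had 1 higher and 6 lower of 12 measured. Over all genes of the class 10.4 percent were higher and 33.0 percent lower. The list median was -1.03, beside -0.57 over all genes, and -0.06 with TMM factors. The sensor gene Nlrp3 was at 753 CPM in FL_control, 91.4 in dHep_IR and 126 in FL_IR, or 8.24-fold lower (interval 7.69 to 8.83), and the DNA sensor gene Aim2 was 10.04-fold lower (interval 7.15 to 13.998). Ninj1, which ruptures the membrane of dying cells, was 9.62-fold lower (interval 8.77 to 10.6). Pycard, the adaptor ASC between sensor and caspase, was the higher member, at 11.9 CPM in FL_control, 182 in dHep_IR and 195 in FL_IR, or 15.3-fold higher (interval 9.87 to 25.02). p53 genes had 1 higher and 6 lower of 14 measured (median -0.73, but 0.24 with TMM factors and 0.26 with doublets kept), and Cdkn1a was at 68.4 CPM in FL_control, 43.5 in dHep_IR and 22.03 in FL_IR, a difference that also turns sign with TMM factors.

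Interferon-stimulated genes were lower in neutrophil-like cells too, with 0 higher and 29 lower of 31 measured and a median of -2.97 (FL_IR -2.72). Rsad2 was at 635 CPM in FL_control, 17.8 in dHep_IR and 11.8 in FL_IR, or 35.7-fold lower (interval 31.9 to 39.97), and Isg15 at 1036 CPM in FL_control, 29.95 in dHep_IR and 15.2 in FL_IR, or 34.6-fold lower (interval 31.7 to 37.7). At 1000 UMIs per cell, 22.0 percent of control cells, 1.35 percent of dHep_IR cells and 1.02 percent of FL_IR cells held a Rsad2 UMI, and T-like cells 0.304, 1.59 and 1.33 percent. T-like cells can express Rsad2 too. Cholesterol and fatty acid synthesis genes went the other way than in endothelial-like cells, with 11 higher and 0 lower of 15 measured and a median of 1.8, or 1.54 with 2 members at 0 in the control taken at their bound (FL_IR 1.09). Fdps, an enzyme of the mevalonate pathway, was at 3.57 CPM in FL_control, 111 in dHep_IR and 43.2 in FL_IR, or 31.1-fold higher (interval 14.3 to 84.8). This difference between the classes was not tested.

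**Figure D5:**
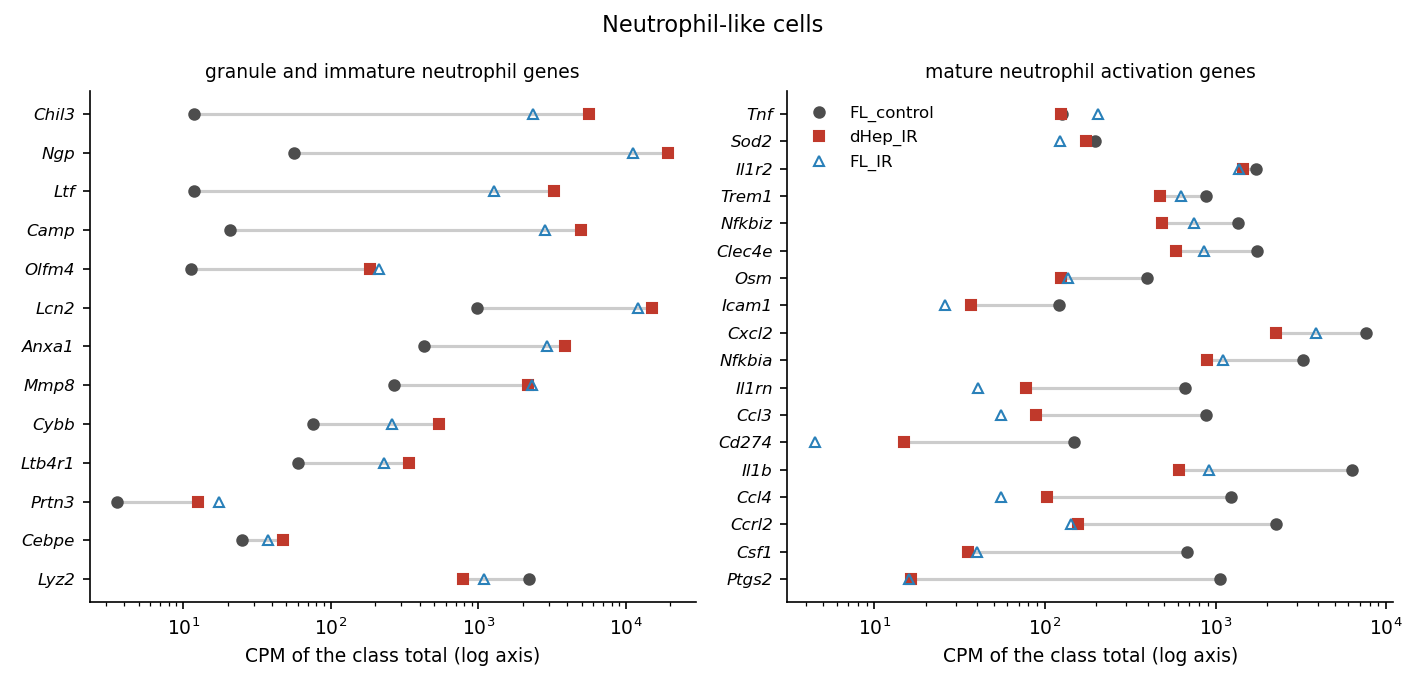
CPM of the measured granule genes (left) and mature neutrophil activation genes (right) in neutrophil-like cells on a log axis, 1 point per gene and library. Granule genes such as Ngp and Camp lie far above FL_control in dHep_IR and FL_IR, Lyz2 lies below it, and activation genes such as Ptgs2 and Il1b lie below it too.

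The extreme genes of neutrophil-like cells by the rule included Ggt1, a glutathione-cleaving enzyme gene that was at least 70.2-fold higher at the floor, and the protease inhibitor genes Cstdc5, at 14.3 CPM in FL_control, 3175 in dHep_IR and 3754 in FL_IR, and Stfa2, at 11.3 CPM in FL_control, 1209.8 in dHep_IR and 1674 in FL_IR. Without the shared barcodes the log2 ratio of Stfa2 was 7.60 in place of 6.71. The collagen gene Col5a1 was at least 19.4-fold higher. Cd101, a surface protein of mature neutrophils, was at 132 CPM in FL_control, 0.3195 in dHep_IR and 2.799 in FL_IR, or 413-fold lower (interval 206 to 969), and Prr5l, which binds the kinase complex mTORC2, was 359.9-fold lower (interval 161 to 997). The hepatocyte products Mup11 and Mup3 were low as well, and abundant hepatocyte transcripts had 0 higher and 15 lower of 15 measured (median -4.08). Endothelial markers summed to 933 CPM in control neutrophil-like cells and 85.9 in dHep_IR. Transcripts of these other classes were a larger part of the shallower control cells, and their part in the lower genes was not tested.

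The dendritic and lymphoid classes held few cells. In cDC-like cells (107 in FL_control, 73 in dHep_IR) the MHC class II list had 1 higher and 2 lower of 11 measured and a median of 0.14 in the library labelled dHep_IR, beside 5.70 percent higher, 8.09 percent lower and a median of -0.03 over all genes. Their highest genes by the rule were Gda, a guanine deaminase gene, at 4.89 CPM in FL_control and 242 in dHep_IR, the cochaperone gene Fkbp5, 23.5-fold higher (interval 14.8 to 39.4), the lectin gene Mgl2, 22.6-fold higher (interval 10.1 to 62.8), and the syndecan gene Sdc4. FL_IR had 3 such cells and allows no comparison. The lowest were Rtl8a, Cyb561a3, Cd7 and Cd180, the last, a partner of Toll-like receptor signalling in B cells and dendritic cells, at 90.5 CPM in FL_control and 10.3 in dHep_IR.

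T-like cells (332 in FL_control, 129 in the library labelled dHep_IR) are described by the list of memory, residency and exhaustion genes, which had 2 higher and 1 lower of 13 measured, beside 4.01 percent higher and 5.0 percent lower over all genes, and a median of -0.29, beside 0.04. Its higher members were Foxp3 and Ctla4. Foxp3, the defining transcription factor of regulatory T cells, was at 13.9 CPM in FL_control, 56.3 in dHep_IR and 30.7 in FL_IR, or 4.05-fold higher (interval 2.501 to 6.61), and the inhibitory receptor gene Ctla4 at 66.05 CPM in FL_control, 234 in dHep_IR and 234 in FL_IR, or 3.55-fold higher (interval 2.84 to 4.43). Itgae, an integrin of resident T cells, was the lower member, 5.31-fold lower (interval 2.18 to 16.8), and the costimulator gene Icos was at 81.7 CPM in FL_control, 113 in dHep_IR and 96.4 in FL_IR, short of 2-fold. Fkbp5 was at 13.9 CPM in FL_control, 167 in dHep_IR and 142 in FL_IR, and Gadd45g, a stress-induced gene, at 23.03 CPM in FL_control, 237 in dHep_IR and 173 in FL_IR. The acute phase list had 8 higher and 0 lower of 8 measured (median 3.08), with Saa1 and Saa2 among the extreme genes. T-like cells should lack serum amyloid transcripts. In dHep_IR Saa1 and Saa2 were also at 105 and 125 CPM in NK or ILC1-like cells and at 71.2 and 62.8 CPM in cDC-like cells. The part of free RNA in the acute phase values was not tested. Hepatocyte products (Mup11, Mup20, Mup3, Apoa2) were the lowest.

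NK or ILC1-like cells (145 in FL_control, 65 in the library labelled dHep_IR) carried more of the killing enzyme gene Gzmb, at 1609.7 CPM in FL_control, 4964 in dHep_IR and 1243 in FL_IR, or 3.08-fold higher (interval 2.87 to 3.32), and of the interferon gamma gene Ifng, at 616 CPM in FL_control, 1478 in dHep_IR and 216 in FL_IR, or 2.3998-fold higher (interval 2.12 to 2.72). FL_IR held 30 such cells, under the minimum of 50 set for comparing a class, so its values stand beside without a comparison. The effector list had 2 higher and 1 lower of 13 measured, beside 2.25 percent higher and 12.7 percent lower over all genes, and a median of -0.18, or 0.06 with TMM factors. The inducible heat shock gene Hspa1a was at 15.2 CPM in FL_control, 805 in dHep_IR and 311 in FL_IR, and the kinase gene Pim2 was 14.7-fold higher (interval 8.499 to 27.3). Itgax, an integrin gene, was lowest, at 135 CPM in FL_control, 17.1 in dHep_IR and 31.6 in FL_IR. In the mixed T and NK cluster (301 and 68 cells) effector genes had 0 higher and 5 lower of 13 measured, beside 2.58 percent higher and 11.5 percent lower over all genes, and a median of -0.73, with the chemokine gene Xcl1 7.0996-fold lower (interval 5.78 to 8.81) and the granzyme gene Gzma 4.88-fold lower (interval 4.01 to 5.99). The chemokine gene Ccl4 was at 2966 CPM in FL_control, 139 in dHep_IR and 241 in FL_IR. Whether the mix of T and NK cells in this cluster differed between the libraries was not tested. Cxcl10, an interferon-induced chemokine gene, was at 228 CPM in FL_control, 923 in dHep_IR and 30.7 in FL_IR, with 36 cells of this cluster in FL_IR, also under that minimum.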

How the data were processed

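Raw UMI counts per gene and barcode, deposited by the authors as filtered 10x matrices of 31253 genes, were the only unit used. Per the submitters' processing notes, CASAVA 1.8, Cell Ranger 6.1.1 and Seurat 4.0.3 were used with the build mm10. Their roles and options are not given in the sources used here.

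In all 3 libraries cells were kept from 500 UMIs and 250 genes upward and up to 25 percent mitochondrial UMIs, and Scrublet in scanpy 1.11.5 (expected rate 6 percent) marked 2.42 percent of FL_control, 3.85 percent of dHep_IR and 3.47 percent of FL_IR as doublets, which were removed. The remaining cells were clustered (2000 variable genes, 30 components, 15 neighbours, Leiden resolution 2, igraph 0.11.9) without batch integration, and clusters were named from marker lists. The scoring rule for names was set after the clusters were seen.

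UMIs were summed per class and library and scaled to 1000000 UMIs of the class (CPM), so a gene's share depends on all other genes of the class. Ratios carry exact conditional 95 percent intervals and shares Clopper-Pearson intervals, both for counting error only. List medians used log2 ratios with a prior count of 0.5, and a gene at 0 in 1 library was bounded at 3 counts for the library. No count model was fitted, since each group had 1 library. Named genes were the 4 highest and 4 lowest ratios per class among genes with at least 100 UMIs over both libraries, a UMI in at least 10 percent of the cells of 1 of the libraries, an interval without 1 and, where the gene is higher, at least 0.25 times its highest CPM over the classes. Class markers were left out, as were sex-linked, unnamed, mitochondrial, ribosomal and haemoglobin genes and antigen receptor segments. Up to 5 members with the largest differences were named per list, and other named members were chosen after their values were seen. The cells compared and the 47 gene lists were chosen with earlier results of these data known. The ratio script was tested on simulated data. edgeR 4.0.16 in R 4.3.3 gave TMM factors as an alternative, and scipy 1.17.1 and numpy 2.4.6 did the rest. Other scalings, gene minimums, cell filters, clusterings and per-cell means were also tried.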

Additional observations from a re-analysis of the deposited data

Results flagged for a closer look

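Some gene lists lay on opposite sides of the control in different cell classes, and none of these differences between classes was tested. The mature neutrophil activation list had a median log2 ratio (dHep_IR over FL_control) of 1.81 in endothelial-like cells and 1.64 in Kupffer-like cells but -1.82 in neutrophil-like cells. Complement genes had medians of 1.01 in monocyte-like and -1.68 in neutrophil-like cells. TNF and NF-kB feedback genes had medians of 1.24 in Kupffer-like and -1.73 in neutrophil-like cells. The neutrophil-like values were -0.85, -0.71 and -0.75 with TMM factors, so each kept its sign. Summed neutrophil markers were higher in endothelial-like cells, at 137 CPM in FL_control and 1562 in dHep_IR, and in Kupffer-like cells, at 153 and 1896 CPM. Their part in the first list was not tested.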

How the results depend on the processing

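No paired analysis was possible because each group had 1 library and no replicate. For the same reason no library was left out in turn, and counting intervals cover no difference between animals. Classes under 150 control cells rest on few UMIs, and a class that shares no cluster between libraries depends on its name. The cause of none of the shifts below was tested, except where the setting itself changes the number of genes or cells.

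With TMM factors, higher and lower genes numbered 1095 and 682 in monocyte-like, 2393 and 956 in neutrophil-like and 139 and 237 in NK or ILC1-like cells, and with median of ratios 1080 and 697, 2306 and 990, and 141 and 237. Neutrophil-like list medians became, with TMM factors and median of ratios in turn, -0.75 and -0.79 (TNF and NF-kB), 2.78 and 2.74 (cholesterol), -0.71 and -0.75 (complement), -1.0 and -1.04 (dissociation stress), 4.14 and 4.10 (granule), -1.99 and -2.03 (interferon-stimulated), -0.85 and -0.89 (activation) and -0.060 and -0.10 (pyroptosis). The recruitment list turned to 0.21 and 0.17 and the p53 list to 0.24 and 0.20, from -0.76 and -0.73. Cathepsins in endothelial-like cells turned to 0.05 with TMM factors and effector genes in NK or ILC1-like cells to 0.06.

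With every gene of at least 1 UMI, higher and lower genes numbered 3627 and 4165 (endothelial-like), 2061 and 3700 (Kupffer-like), 3805 and 3262 (monocyte-like), 3612 and 6230 (neutrophil-like), 1731 and 3535 (cDC-like), 2110 and 3120 (T-like), 1393 and 4312 (cluster 7) and 1510 and 4032 (NK or ILC1-like). The interleukin-1 median in monocyte-like cells was then 0.42 and the recruitment median in neutrophil-like cells -1.44. At a minimum of 200 UMIs the numbers were 307 and 438 (Kupffer-like), 399 and 506 (monocyte-like), 515 and 1601 (neutrophil-like), 74 and 88 (cDC-like), 40 and 61 (T-like), 24 and 124 (cluster 7) and 14 and 68 (NK or ILC1-like). Medians were then 1.87 for CC chemokines in Kupffer-like, -1.08 for complement in neutrophil-like, and 1.28 for neutrophil activation and 2.74 for recruitment in endothelial-like cells.

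With doublets kept, 121 genes were higher in NK or ILC1-like and 1483 in neutrophil-like cells, the log2 ratio of the endothelial-like share was 0.29, and medians were 2.17 (CC chemokines, Kupffer-like) and 0.26 (p53, neutrophil-like). With 1000 UMIs, 500 genes and 10 percent mitochondrial UMIs as limits, lower genes numbered 576 in T-like cells and 1992 among monocyte-like cells, the hepatocyte-like share had a log2 ratio of -7.60, and medians were -1.30 (MHC class II) and -0.77 (p53) in monocyte-like and 2.20 (acute phase) in T-like cells. At Leiden resolution 1, 127 genes were higher in NK or ILC1-like cells, share ratios were 0.20 (endothelial-like) and 2.14 (monocyte-like) on the log2 scale, and medians were -1.43 (MHC class II) and 0.10 (p53) in Kupffer-like and -2.02 (MHC class II), 1.66 (complement) and 0.61 (interleukin-1) in monocyte-like cells. As means of per-cell CPM, medians were -0.045 (MHC class II, monocyte-like), -1.15 (TNF and NF-kB) and -2.39 (interferon-stimulated) in neutrophil-like, and 1.12 (activation) in Kupffer-like cells.

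Further alternatives were chosen after seeing the data. With monocyte-like cells of cluster 9 alone, medians were 1.37 (CC chemokines), 0.25 (MHC class II), 0.25 (GTPases) and -0.93 (interferon-stimulated), and the share ratio was 1.8 on the log2 scale. Without shallow cluster 4 the Kupffer-like share ratio was -1.36. With the shallow unnamed clusters counted as endothelial-like, that share ratio was 0.29. Without barcodes found in both libraries, all 68 counts and medians computed stayed within the tolerance, and of single genes Stfa2 moved. Class shares are not among these 68. Without thinning, the difference in the share of monocyte-like cells with an H2-Ab1 UMI turned to -3.98 percentage points (33.6 percent in FL_control, 29.6 in dHep_IR), where at equal depth the shares were 16.9 and 18.0 percent.

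Medians near 0 changed sign without passing the tolerance of 0.5. The p53 list in monocyte-like cells was -0.18 with every gene of at least 1 UMI, -0.10 in cluster 9 alone and -0.15 as a per-cell mean. The VEGF list in endothelial-like cells was 0.077 with every gene of at least 1 UMI, the haem list in Kupffer-like cells -0.019 with doublets kept, and the lipid-associated list in monocyte-like cells 0.056 under the stricter limits. Cathepsins and NK or ILC1-like effector genes were 0.038 and 0.066 with median of ratios. Apart from these and the sign changes given above (recruitment and p53 in neutrophil-like cells, and MHC class II, GTPases and p53 in monocyte-like cells), list medians kept their direction. Counts not listed stayed within 1.5 times. Of ratios of single genes, 12 moved with the stricter cell filter, 11 as per-cell means, 9 at resolution 1, 6 with doublets kept, 4 with each scaling and 3 with cluster 9 alone or without cluster 4, and 9 shares of cells with a UMI moved without thinning.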

Other observations

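The following 5 genes were chosen after their values were seen, and differences between classes were not tested. Fkbp5, a cochaperone of the glucocorticoid receptor, was 11.2-fold higher in endothelial-like cells (42.1 CPM in FL_control, 469 in dHep_IR and 437 in FL_IR), 7.07-fold in Kupffer-like, 9.77-fold in monocyte-like, 2.16-fold in neutrophil-like, 23.5-fold in cDC-like, 12.0-fold in T-like and 3.57-fold in cluster 7, and short of 2-fold in NK or ILC1-like cells. Zbtb16, given above for endothelial-like cells, was 4.31-fold lower in cluster 7 (77 UMIs in FL_control, 5 in dHep_IR) and 2.44-fold lower in monocyte-like cells. Ddit4, which inhibits the growth kinase complex mTORC1, was 4.85-fold higher in endothelial-like, 6.26-fold higher in Kupffer-like, 6.09-fold in T-like and 3.72-fold in cluster 7, but 2.18-fold lower in NK or ILC1-like cells (68.2 CPM in FL_control, 31.3 in dHep_IR) and short of 2-fold in monocyte-like, neutrophil-like and cDC-like cells. Tsc22d3, a glucocorticoid-induced gene, was at 114 CPM in FL_control and 90.7 in dHep_IR in endothelial-like cells. Per1, a repressor of the circadian clock, was 6.43-fold higher in endothelial-like and 6.58-fold lower in neutrophil-like, 2.02-fold in monocyte-like, 2.09-fold in cluster 7 and 2.09-fold in NK or ILC1-like cells.

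Unnamed clusters also differed between libraries. Cluster 18 held 79 cells of FL_control, 1 of dHep_IR and 0 of FL_IR, with Prg4, Alox15 and Serpinb2 among its leading genes. Cluster 20, led by cell cycle genes, held 63, 41 and 6 cells.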
